A study of Mus musculus with 18 samples.

Results

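Interferon gamma, the receptors for the cytokines that induce it, and the molecules attached to this circuit were followed through liver type 1 lymphocytes and metastasis-associated macrophages (MAMs) of mice carrying MC38 tumors. The 10 genes were taken by name, out of 54309 genes in the lymphocyte data and 13759 in the macrophage data. They comprise the IL-18 receptor pair Il18r1 and Il18rap, the IL-12 receptor pair Il12rb1 and Il12rb2, the transcription factor Stat4, interferon gamma itself (Ifng) and its receptor subunit Ifngr1, the IL-27 receptor Il27ra, the IL-18 antagonist Il18bp, and the IL-33 receptor Il1rl1. All 10 were present in both tables. A filter on low counts kept 9 of them in lymphocytes, leaving out Il1rl1, and all 10 in macrophages.

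MC38, a mouse colon adenocarcinoma line, was injected into the spleen of female C57BL/6J mice aged 8 to 10 weeks, and livers were taken on day 20. Live, lineage-negative CD45+ NKp46+ cells were sorted from pools of 6 to 8 samples of liver metastasis (LM) or metastasis-free liver (MFL). The 4 groups of 3 libraries were MFL NK cells (CD49a-CD49b+), LM CD49a- NK cells (CD49a-CD49b+), LM CD49a+ NK cells (CD49a+CD49b+, called ILC1 in the sample titles) and MFL ILC1 (CD49a+CD49b-). CD45+CD11b+ MAMs were sorted into F4/80hi cells and F4/80int cells (F4/80low in the labels), with 3 libraries each, and whether these were pooled is not given in the sources used here. All mice carried metastases, so no group came from a healthy liver. LM was digested with enzymes and MFL was dispersed mechanically, so the site and the dissociation cannot be told apart in any comparison between MFL and LM.

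IL-12 is a macrophage and dendritic cell cytokine that binds a receptor made of IL-12Rβ1, which is shared with the IL-23 receptor, and IL-12Rβ2, and signals through JAK2, TYK2 and STAT4. IL-18 binds IL-18Rα, the product of Il18r1, which recruits the accessory chain encoded by Il18rap and signals through MyD88 and IRAK kinases. In NK cells and ILC1, both cytokines together are strong inducers of interferon gamma, which in turn acts on macrophages through a receptor of IFNGR1 and IFNGR2.

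On GRCm39, with GENCODE M39, Il1rl1 (chr1:40468730-40504575), Il18r1 (chr1:40504712-40540014) and Il18rap (chr1:40554522-40590865) lie in a row on the plus strand within 122136 bases, and only 136 bases separate the end of Il1rl1 from the start of Il18r1. Il12rb2 (chr6:67268302-67353172, minus strand) and Il12rb1 (chr8:71261093-71276183, plus strand) are on different chromosomes. Ifng (chr10:118276951-118281797) and Ifngr1 (chr10:19467697-19485977) share chromosome 10 but are far apart on it. Il12rb2, Il18bp and Il27ra overlap a gene on the opposite strand in part (Serbp1, Numa1 and Palm3), and Ifng and Stat4 overlap annotated noncoding or unclassified transcripts. How such reads were divided cannot be told from the counts, so these members carry that uncertainty.

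The bases just before the annotated start are shown for the IL-18 receptor pair and Il12rb2, which fell in ILC1 relative to NK cells, and for Ifng, which did not pass that test. The sequences are from RefSeq (GRCm38.p6) and were placed on GRCm39 by exact match, each ending next to the GENCODE start, at chr1:40504576-40504711 (plus strand, cut to the 136 bases that follow the last exon of Il1rl1), chr1:40554272-40554521 (plus), chr6:67353173-67353422 (minus) and chr10:118276701-118276950 (plus). They were searched on both strands for the STAT motif TTCNNNGAA, which is its own reverse complement, the T-box motif GGTGTGA and the Runx motif TGTGGT, and matches are in capitals.
Il18r1: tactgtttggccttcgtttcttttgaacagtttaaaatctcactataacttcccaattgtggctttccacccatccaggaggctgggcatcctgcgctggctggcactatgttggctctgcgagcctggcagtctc
Il18rap: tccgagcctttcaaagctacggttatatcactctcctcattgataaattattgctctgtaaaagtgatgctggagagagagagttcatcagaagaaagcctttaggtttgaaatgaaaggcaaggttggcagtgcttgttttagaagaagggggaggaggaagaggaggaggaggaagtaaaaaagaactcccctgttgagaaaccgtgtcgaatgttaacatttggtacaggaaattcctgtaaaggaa
Il12rb2: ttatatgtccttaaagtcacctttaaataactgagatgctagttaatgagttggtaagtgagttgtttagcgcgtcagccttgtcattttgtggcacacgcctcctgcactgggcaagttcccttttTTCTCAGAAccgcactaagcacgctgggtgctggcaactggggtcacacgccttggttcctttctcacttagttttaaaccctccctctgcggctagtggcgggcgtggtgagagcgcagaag
Ifng: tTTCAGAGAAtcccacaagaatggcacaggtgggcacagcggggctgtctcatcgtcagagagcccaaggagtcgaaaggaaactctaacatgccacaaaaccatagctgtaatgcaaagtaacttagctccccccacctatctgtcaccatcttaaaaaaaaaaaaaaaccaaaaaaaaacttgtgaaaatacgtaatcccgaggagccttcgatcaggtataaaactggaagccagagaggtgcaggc

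The STAT motif occurred 123 to 115 bases before the start of Il12rb2 and 249 to 241 bases before that of Ifng, and none of the 3 motifs occurred in the windows of Il18r1 and Il18rap. Among all 32851 windows of 250 bases in the RefSeq table, 7.02% held the STAT motif, 3.33% the T-box motif and 14.0% the Runx motif. These are matches of letters and not binding sites. Of the 10 members, 8 are in that table, and Il12rb1 and Il27ra are not.

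Library totals were 8795721 to 14386834 estimated counts in lymphocytes and 21278959 to 32267015 counts in macrophages. Levels are given as CPM (counts scaled to a fixed library total) after TMM scaling, and a difference was called at a Benjamini-Hochberg adjusted p under 0.1 over all genes tested with edgeR's quasi-likelihood test. The sorted surface markers followed their labels: mean Itga1 (CD49a) was 134 CPM in LM CD49a+ NK cells and 663 CPM in MFL ILC1 against 11.5 CPM (MFL NK) and 11.4 CPM (LM CD49a- NK) in the CD49a- populations, and Adgre1 (F4/80) was 958 CPM in F4/80hi against 146 CPM in F4/80int MAMs. All 7 NK and ILC1 marker genes, Ncr1 among them, were detected in each lymphocyte group.

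IL-18 receptor transcripts separated MFL ILC1 from every NK population. Il18r1, the ligand-binding chain, was at 433, 427 and 500.2 CPM for MFL NK cells, 433, 673 and 393 CPM in LM CD49a- NK cells, and 427, 386 and 340 CPM in LM CD49a+ NK cells. MFL ILC1 held 91.7, 61.3 and 75.2 CPM, below all 9 NK libraries. No difference among the 3 NK groups was called. In MFL ILC1, Il18r1 was 5.96-fold lower than in MFL NK cells (log2 fold change -2.58, SE 0.25, adjusted p = 7.25e-06, edgeR). It was higher in LM CD49a+ NK cells than in ILC1 by 2.34 on the log2 scale (SE 0.25, adjusted p = 3.20e-05, edgeR).

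Il18rap, the accessory chain needed for signaling, had a lower mean in LM CD49a+ NK cells than in the other NK populations. It measured 959.5, 871 and 1213 CPM for MFL NK cells, 1319, 970.1 and 1472 CPM in LM CD49a- NK cells, 448, 420.4 and 700.5 CPM in LM CD49a+ NK cells, and 268, 195 and 173 CPM in MFL ILC1. The LM CD49a+ NK cells thus stood between the other NK cells and ILC1, and their libraries overlapped with none of the other groups. Against ILC1 they were higher by 1.30 (log2, SE 0.26, adjusted p = 0.0103, edgeR). Against LM CD49a- NK cells the log2 fold change was -1.26 (95% interval -1.81 to -0.71) with an adjusted p of 0.104, and against MFL NK cells it was -0.96 (-1.50 to -0.41) with an adjusted p of 0.170 (edgeR), so neither passed the threshold. Leaving out LM CD49a- NK replicate 2, LM CD49a- NK replicate 3 or LM CD49a+ NK replicate 3 brought the adjusted p against LM CD49a- NK cells to 0.0409, 0.0742 and 0.0485 (edgeR). Leaving out LM CD49a- NK replicate 2 or LM CD49a+ NK replicate 3 brought that against MFL NK cells to 0.0880 and 0.0748 (edgeR). Of 12 fits that each left out 1 library, these 3 and 2 were the only calls. The adjusted p rose to 0.347 and 0.674 in the other fits (edgeR). MFL ILC1 were 4.79-fold lower in Il18rap than MFL NK cells (adjusted p = 5.28e-05, edgeR).

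**Figure D1:**
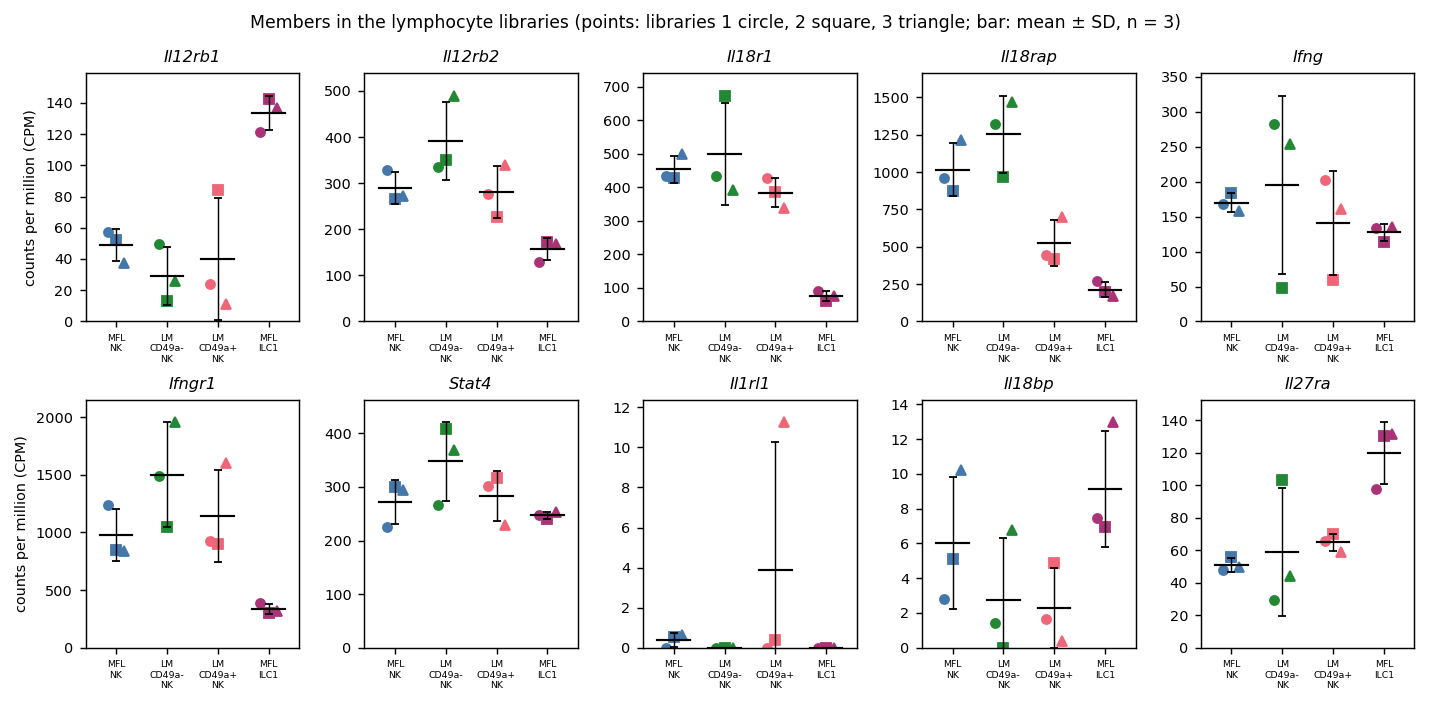
CPM of the 10 genes (y axes, linear, each from 0) in the 12 lymphocyte libraries by group, with the mean and SD of 3 libraries. Il18r1, Il18rap and Ifngr1 are lowest in MFL ILC1, Il12rb1 and Il27ra have their highest mean there, and Ifng is low in replicate 2 of both LM groups.

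Both IL-12 receptor genes differed in mean between ILC1 and NK cells, in opposite directions. Il12rb2, the chain that carries the STAT4 docking sites, was at 329, 266 and 272 CPM for MFL NK cells, 334, 351 and 489.6 CPM in LM CD49a- NK cells, 277, 226 and 339.7 CPM in LM CD49a+ NK cells, and 129.6, 173 and 169 CPM in MFL ILC1. No ILC1 library reached the lowest NK library. ILC1 against MFL NK cells had a log2 fold change of -0.88 (SE 0.23, adjusted p = 0.0578, edgeR). LM CD49a+ NK cells were higher than ILC1 by 0.84 (SE 0.23, adjusted p = 0.0735, edgeR), and LM CD49a- NK cells by 1.32 (SE 0.23, adjusted p = 0.00254, edgeR). The first of these calls ended when any 1 of the 6 libraries of MFL ILC1 or MFL NK cells was left out (adjusted p from 0.136 to 0.298), and the second when any of 7 libraries was left out, namely LM CD49a+ NK replicates 1 and 3, the 3 MFL ILC1 replicates and MFL NK replicates 2 and 3 (adjusted p from 0.112 to 0.322, edgeR). The third held in all 12 such fits. The second was also lost when edgeR was fitted to the groups compared alone (adjusted p = 0.101).

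Il12rb1, the chain shared with the IL-23 receptor, was at 121, 142 and 137 CPM in MFL ILC1, whereas MFL NK cells had 57.5, 51.9 and 37.4 CPM. The LM groups were scattered, with 49.4, 12.9 and 25.7 CPM in LM CD49a- NK cells and 23.9, 84.4 and 11.2 CPM in LM CD49a+ NK cells. Every ILC1 library was above all 9 NK libraries. With edgeR only the difference of LM CD49a- NK cells from ILC1 was called (log2 fold change -2.19, SE 0.59, adjusted p = 0.0516, edgeR), and it was lost without LM CD49a- NK replicate 2 or 3 or without any of the 3 MFL ILC1 replicates (adjusted p from 0.121 to 0.136). The log2 fold change of ILC1 against MFL NK cells was 1.45 (95% interval 0.24 to 2.66, adjusted p = 0.363) and that of LM CD49a+ NK cells against ILC1 was -1.74 (adjusted p = 0.160, edgeR). The latter was called in 2 of 12 fits that left out 1 library, without LM CD49a+ NK replicate 2 (adjusted p = 0.00774) and without LM CD49a- NK replicate 2 (0.0913). Its adjusted p rose to 0.409 in the other fits (edgeR). Both depended on the fit. Il12rb1 was called higher in ILC1 than in MFL NK cells by limma voom (adjusted p = 4.18e-06), by edgeR on the 2 groups compared (0.00235) and by edgeR without the low-count filter (0.0274), but not by DESeq2 (0.213) or by edgeR with RLE scaling (0.330) or the replicate block (0.290). LM CD49a+ NK cells were called lower than ILC1 by DESeq2 (adjusted p = 0.0585), limma voom (0.0233) and edgeR without the filter (0.00256), but not with the other 3 alternative settings (adjusted p from 0.104 to 0.210).

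Per kilobase of annotated exon, the ratio of Il12rb2 to Il12rb1 was 1.75, 1.99 and 2.02 in MFL ILC1 but 9.39, 8.40 and 11.9 in MFL NK cells. It was 11.1, 44.7 and 31.3 in LM CD49a- NK cells and 19.0, 4.38 and 49.9 in LM CD49a+ NK cells. The 9 NK libraries were all above the 3 ILC1 libraries, and the LM groups, in which Il12rb1 was low and uneven, spread the most. The same ratio of Il18rap to Il18r1 was 0.766, 0.794 and 1.51 in LM CD49a+ NK cells, against 1.62, 1.49 and 1.77 for MFL NK cells, 2.22, 1.05 and 2.73 for LM CD49a- NK cells and 2.13, 2.32 and 1.68 in ILC1. These ratios are descriptions with no test, and they compare transcripts and not receptor chains on the cell surface.

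**Figure D2:**
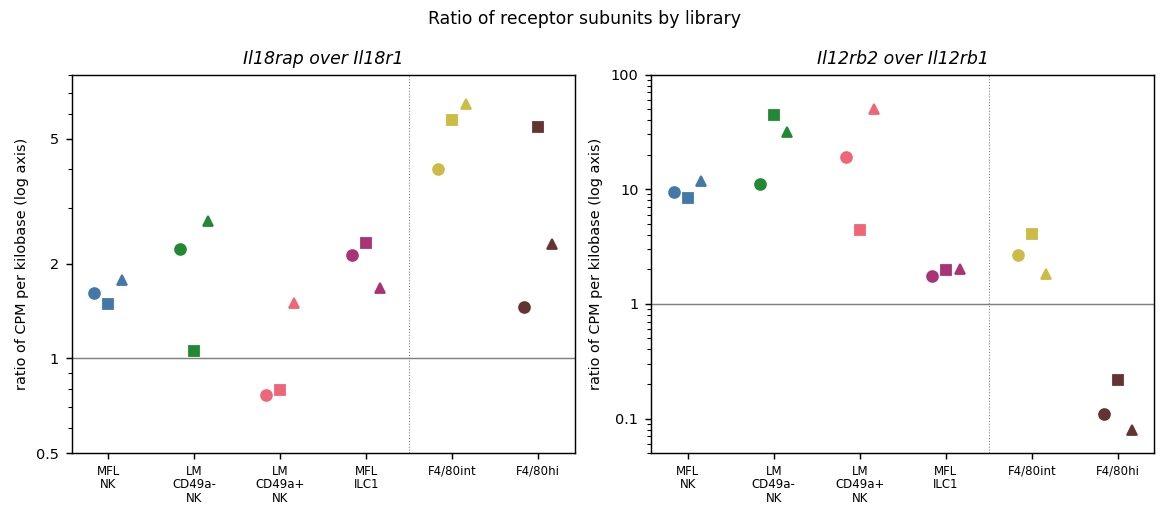
Ratio of CPM per kilobase between the subunits of each receptor (y axis, log scale) in the 18 libraries, with the 2 MAM groups to the right of the dotted line. The Il12rb2 to Il12rb1 ratio is 1.75 to 2.02 in MFL ILC1, at least 4.38 in the NK libraries, and below 1 in F4/80hi MAMs.

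Downstream of the receptors, Stat4, which transmits the IL-12 signal to Ifng, differed little in mean across the lymphocytes. It lay at 225, 299 and 293 CPM for MFL NK cells, 266, 409 and 368 CPM in LM CD49a- NK cells, 301, 317 and 229 CPM in LM CD49a+ NK cells, and 248, 239.8 and 253 CPM in MFL ILC1. All groups overlapped with MFL NK cells. No difference was called, and the interval of ILC1 against MFL NK cells ran from -0.61 to 0.33 on the log2 scale. LM CD49a- NK cells did not overlap with ILC1 and were higher by 0.49 (95% interval 0.025 to 0.96), with an adjusted p of 0.292 (edgeR).

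Ifng was transcribed in every lymphocyte library, and no difference between groups was called. It was at 169, 184 and 158 CPM for MFL NK cells, and ILC1 had 133, 114 and 136 CPM, 2 groups that did not overlap but whose log2 fold change of -0.42 had a 95% interval from -1.41 to 0.58. In LM the libraries split, with 282, 48.4 and 254 CPM in LM CD49a- NK cells and 203, 59.2 and 161 CPM in LM CD49a+ NK cells. Replicate 2 was the lowest in both LM groups, below all libraries from MFL. LM CD49a+ against LM CD49a- NK cells had a log2 fold change of -0.47 (95% interval -1.47 to 0.53, adjusted p = 0.769), and LM CD49a- against MFL NK cells 0.20 (-0.80 to 1.19, adjusted p = 0.996, edgeR). The latter turned to -0.17 without LM CD49a- NK replicate 1 and to -0.043 without replicate 3. Per kilobase, mean Ifng was 98.5 to 151 in the 4 groups, and mean Il18rap was 150.3 in MFL NK, 186 in LM CD49a- NK, 77.4 in LM CD49a+ NK cells and 31.4 in ILC1. For the protein, the paper reports comparable release of interferon gamma by both LM NK populations, above that of NK cells from MFL or healthy liver. RNA is a different measure, so the Ifng levels do not give the amount released.

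Ifngr1, the ligand-binding chain of the interferon gamma receptor, had the highest level per kilobase of the 10 members, with a group mean between 118 and 527. It was at 1242, 852 and 841 CPM for MFL NK cells, 1493, 1047 and 1957 CPM in LM CD49a- NK cells, and 926, 899.7 and 1601 CPM in LM CD49a+ NK cells, against 386, 299.8 and 319 CPM in MFL ILC1. ILC1 stood below every NK library. Relative to MFL NK cells Ifngr1 was 2.92-fold lower in ILC1 (log2 fold change -1.55, SE 0.29, adjusted p = 0.00396, edgeR). LM CD49a+ NK cells were higher than ILC1 by 1.77 (SE 0.29, adjusted p = 0.00181) and LM CD49a- NK cells by 2.16 (SE 0.29, adjusted p = 0.000172, edgeR). Counts of Ifngr2, the second chain of this receptor, were 0 to 33 in each of the 12 lymphocyte libraries, so no level could be compared. Whether transcript assignment failed for this gene could not be checked, so these counts are not read as absence of its transcript.

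The remaining members were less abundant. Il27ra, the specific chain of the IL-27 receptor, was at 97.9, 130.1 and 132 CPM in MFL ILC1, 47.6, 56.1 and 49.7 CPM for MFL NK cells, 65.6, 69.9 and 59.3 CPM in LM CD49a+ NK cells and 29.4, 104 and 44.3 CPM in LM CD49a- NK cells. The ILC1 libraries were above the MFL NK and LM CD49a+ NK libraries and overlapped with LM CD49a- NK replicate 2. The log2 fold change of ILC1 against MFL NK cells was 1.23 (95% interval 0.43 to 2.03) with an adjusted p of 0.133 (edgeR). It was called in 2 of 12 fits that left out 1 library, without LM CD49a- NK replicate 1 (adjusted p = 0.0445) or replicate 2 (0.0166), and reached an adjusted p of 0.466 in the others (edgeR). It was called in 5 of 6 alternative fits, by DESeq2 (adjusted p = 0.0558), limma voom (1.79e-06), and edgeR on the groups compared (0.00356), without the low-count filter (0.0593) and with the replicate block (0.0943), but not with RLE scaling (0.113). Limma voom also called Il27ra lower in LM CD49a+ and LM CD49a- NK cells than in ILC1 (adjusted p = 0.0570 and 0.0163). Without LM CD49a- NK replicate 2, LM CD49a- and LM CD49a+ NK cells were called lower than ILC1 in Il27ra too (adjusted p = 0.00413 and 0.0965, edgeR). Il18bp, a secreted decoy that binds IL-18, was near the detection limit, at 0 to 13.0 CPM, with no call. Il1rl1 had 0, 7 and 9 counts in MFL NK cells and 0, 5 and 113 counts in LM CD49a+ NK cells, and 0 counts in the other 6 libraries, which allows up to 3 counts in each (counting error only). The library with 113 counts, LM CD49a+ NK replicate 3, also had the highest summed level of 7 ILC2 marker genes, 217 CPM against 81.5 to 176 CPM in the other 11 libraries, with Il5, Il13 and Hs3st1 at 0 in that group. Most of that sum came from Gata3 (166 CPM) and Icos (50.5 CPM), and Gata3 reached 149.8 CPM in LM CD49a- NK cells. Ms4a2, a mast cell and basophil gene, had 47 counts in the same library and 0 in the other 11. The part of such cells in this Il1rl1 count was not tested.

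By comparison, in the edgeR fit MFL ILC1 against MFL NK cells gave 4 lower members of 9 tested (Il12rb2, Il18r1, Il18rap and Ifngr1), where 1.68% of all genes were lower, and 0 higher, where 1.38% of all genes were higher. DESeq2 called 5 members (667 of 13594 genes in all) and limma voom 6 (2645 genes), adding Il27ra as higher in both and Il12rb1 as higher with limma voom. In LM CD49a+ NK cells set against MFL ILC1, Il12rb2, Il18r1, Il18rap and Ifngr1 were higher, 4 of 9 against 2.29% of all genes, and 0 were lower, against 1.29%. Here DESeq2 called 5 members (1010 genes in all), adding Il12rb1 as lower, and limma voom 6 (935 genes), adding Il12rb1 and Il27ra as lower. LM CD49a- NK cells had the 4 genes higher than ILC1 (2.82% of all genes) and 1, Il12rb1, lower (1.6%), with the same number called by DESeq2 (1233 genes in all) and 6 by limma voom (878 genes), which added Il27ra. These 3 comparisons share libraries and are not independent. The median log2 fold change of the 9 members was -0.42 in the first, where that of all genes was 0.0055. Of LM CD49a+ relative to LM CD49a- NK cells, 0 of 9 members were called by edgeR in either direction, with 0.0662% of all genes higher and 0.0736% lower, and Il18rap alone had an unadjusted p under 0.05. DESeq2 called 1 member, Il18rap, among 543 genes in all, and limma voom called 0 of the 13594 genes. Between LM CD49a+ NK and MFL NK cells edgeR called 0 of 9, with 0.427% of all genes higher and 0.221% lower, again with Il18rap alone at an unadjusted p under 0.05, and DESeq2 and limma voom called 1 each, Il18rap, among 365 and 307 genes in all. Between LM CD49a- NK and MFL NK cells edgeR called 0 of 9, with 0.0662% of all genes higher and 0.00736% lower, and Ifngr1 alone had an unadjusted p under 0.05. DESeq2 called 0 members among 161 genes in all, and limma voom 1, Ifngr1, among 104 genes.

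**Figure D3:**
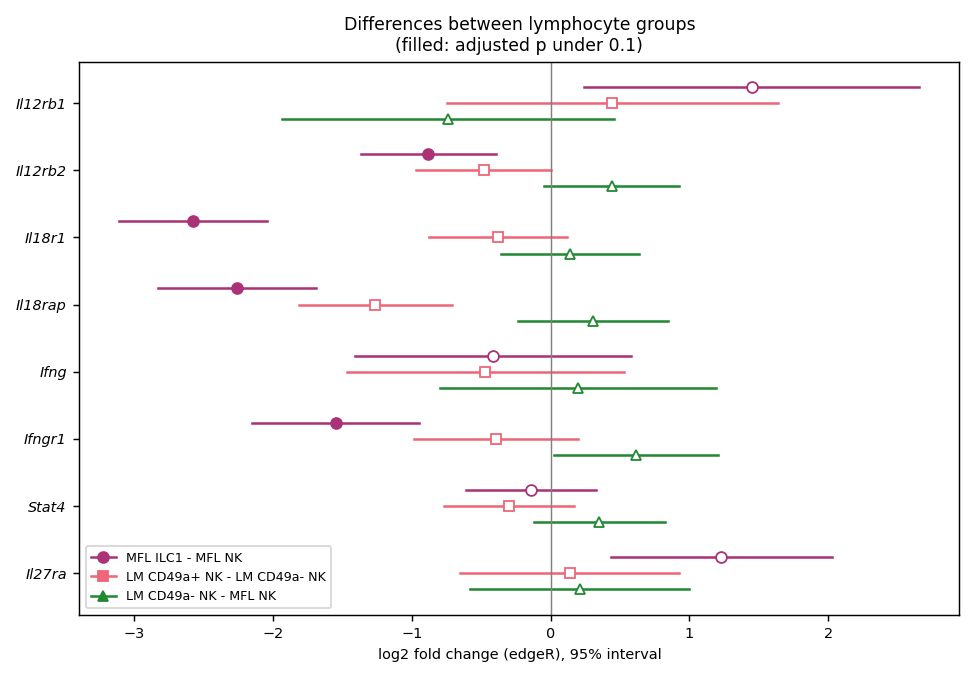
Log2 fold change with its 95% interval (x axis) of 8 members in 3 lymphocyte comparisons, from the edgeR fit of 12 libraries, with filled symbols for an adjusted p under 0.1. Il12rb2, Il18r1, Il18rap and Ifngr1 are called lower for MFL ILC1 relative to MFL NK cells, and no member is called in the other comparisons shown.

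The CD49a+ and CD49a- cells of each site were also compared with each other, to ask whether the CD49a+ population of LM departs from its CD49a- counterpart as ILC1 depart from NK cells in MFL. This interaction cannot separate site from cell type, because the CD49a+ cells were CD49b+ in LM and CD49b- in MFL. Of the 9 members, 1 differed, Il18r1, where 0.625% of all genes had a higher and 0.405% a lower difference in LM. The log2 fold change of Il18r1 was -0.38 (95% interval -0.88 to 0.12) in LM and -2.58 in MFL, a difference of 2.20 (SE 0.34, adjusted p = 0.00331, edgeR), and it was called in all 12 fits that left out 1 library. For Il18rap the log2 fold changes were -1.26 and -2.26, and their difference of 1.00 (95% interval 0.23 to 1.77) had an adjusted p of 0.420. For Ifngr1 they were -0.39 and -1.55, with a difference of 1.15 (95% interval 0.32 to 1.99, adjusted p = 0.376, edgeR).

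Marker genes of other cells moved with some of these groups. Among 9 T cell markers, whose sum was 333 to 721 CPM in MFL ILC1 but 52.0 to 86.1 CPM in MFL NK cells, 5 were tested and 1 was called, Cd3g, at 224, 522 and 668 CPM in ILC1 against 4.41 to 9.43 CPM. The other CD3 chains were at or near 0 in ILC1, with Cd3e at 0, 0.366 and 0 CPM and Cd3d at 0, 1.98 and 4.83 CPM, and Cd6 was at 0 in all 3. Cd4 was at 5.09, 2.78 and 1.99 CPM and Cd8a at 6.28, 3.29 and 5.02 CPM in ILC1, while both were at most 0.236 CPM in the 9 NK libraries. Of the 5 T cell markers tested, 4 had a log2 fold change above 0 in ILC1 against MFL NK cells (median 5.28). The sum was 93.6 to 311 CPM in LM CD49a+ NK cells and 64.6 to 105 CPM in LM CD49a- NK cells. Most of it was Cd28, at 275, 60.4 and 111 CPM in LM CD49a+ NK cells and 89.1, 56.5 and 69.6 CPM in LM CD49a- NK cells. Cd5, Cd6, Cd4, Cd8a and Cd8b1 were at 0 in all LM CD49a+ NK libraries. Hepatocyte markers summed to 107 to 134 CPM in ILC1 and 33.1 to 209.5 CPM for MFL NK cells, so the groups overlapped. They reached at most 34.3 CPM in LM CD49a+ NK and 68.4 CPM in LM CD49a- NK cells, below every ILC1 library, and all 6 tested were below 0 in both LM groups against ILC1 (median log2 fold change -3.54 and -4.28), with Alb called lower in LM CD49a- NK cells. Macrophage markers summed to 119 CPM in MFL ILC1 replicate 2, where Lyz2 was at 85.2 CPM, against 9.59 and 8.05 CPM in the other ILC1 libraries, and to 34.6 CPM in LM CD49a+ NK replicate 2. In the other 10 libraries they reached at most 25.7 CPM. Mast cell and basophil markers summed to 41.4 to 81.2 CPM in ILC1 and 136 to 212 CPM in MFL NK cells, with Cma1 called lower in ILC1 and Fcer1a, Mcpt4 and Tpsb2 at 0 in all 12 libraries. The part of these genes in the members' differences was not tested. In bulk samples, fewer cells of a type and less RNA per cell cannot be told apart.

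Genes around the members were also called. In ILC1 against MFL NK cells, 1.38% of all genes were higher and 1.68% lower. Of 10 signal transducers tested, ILC1 against MFL NK cells had 1 higher, Jak2 (log2 fold change 1.28, adjusted p = 0.00411), a kinase bound by IL-12Rβ2, and 2 lower, Jak1 (-0.98, adjusted p = 0.0150) and Tyk2, the kinase bound by IL-12Rβ1 (-0.96, adjusted p = 0.0115, edgeR). Of 8 regulators of Ifng, 3 were lower in ILC1, the transcription factors Eomes (-5.04, adjusted p = 6.63e-06), Zeb2 (-4.70, adjusted p = 1.93e-07) and Prdm1 (-2.01, adjusted p = 0.00559, edgeR). Among 19 interferon gamma targets tested, Gbp6 (2.04) and Gbp4 (0.83) were higher and Irf8 (-3.24) lower. The 3 receptor partners that passed the filter, Il6st, Il1rap and Sigirr, gave no call. The 7 ligand genes of the list did not pass the filter in lymphocytes.

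Between the LM populations, 0.0662% of all genes were higher and 0.0736% lower in CD49a+ NK cells. Of the 8 regulators 1 was lower, Zeb2 (132 against 435 CPM, log2 fold change -1.72, adjusted p = 0.0402, edgeR), and none of the 10 transducers or 19 targets was called by edgeR. The log2 fold change was above 0 in 14 of the 19 targets, and their median was 0.94 where that of all genes was 0.011. Against MFL NK cells, LM CD49a+ NK cells were higher in 2 of 19 targets, where 0.427% of all genes were higher. These were Cd274, which encodes PD-L1 (135 against 32.6 CPM, log2 fold change 2.05, adjusted p = 0.0262), and Gbp6 (115 against 39.3 CPM, 1.55, adjusted p = 0.0777, edgeR). Of the 19 targets, 17 were above 0 (median 0.56, all genes -0.040). LM CD49a- NK cells had no target called against MFL NK cells. The paper reports higher expression of IFN-α response genes in LM CD49a+ NK cells than in both CD49a- NK populations. The part of each interferon in the levels of these targets was not tested.

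The genes whose levels across the 12 lymphocyte libraries were most like a member were found among 9774 genes with a mean of at least 5 CPM, by Pearson's r of log2 CPM. For Il18r1 they were Lef1 (r = 0.987), S1pr1 (0.975) and Phactr3 (0.974). For Il12rb2 they were Crybg1 (0.960), Tpm3 (0.944) and Mapk6 (0.942). Ifng was followed most closely by H3f3b (0.953), Frat1 (0.927) and Rpl35rt (0.919), while Stat4 had lower values, with Ccdc117 at 0.854, Prim1 at 0.844 and Snrpe at 0.837. The points share sorting groups and libraries, so these values describe the 12 libraries only.

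In macrophages, which can make IL-12 and respond to interferon gamma, 9 of the 10 members differed between the F4/80 subsets. The background was wide, since 27.8% of all genes were higher and 27.1% lower in F4/80hi cells. Of the members, 7 were lower (Il18rap, Il12rb2, Il18r1, Stat4, Ifng, Ifngr1 and Il27ra) and 2 higher (Il12rb1 and Il1rl1). The median log2 fold change of the 10 members was -1.60, against 0.014 over all genes.

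Ifngr1 was the most abundant member, at 404.5, 393 and 418 CPM in F4/80int and 205, 161 and 226 CPM in F4/80hi MAMs, with no overlap (log2 fold change -1.04, SE 0.13, adjusted p = 0.000288, edgeR). Its partner Ifngr2 was at 161 to 189.6 CPM and 194 to 197 CPM in these groups and was not called. Stat4 was at 47.5, 40.3 and 31.3 CPM in F4/80int and 10.1, 7.69 and 11.8 CPM in F4/80hi MAMs (-2.01, SE 0.19, adjusted p = 8.82e-05, edgeR). Il27ra was at 6.57, 6.59 and 4.41 CPM and at 2.97, 2.09 and 2.69 CPM (-1.18, SE 0.24, adjusted p = 0.00411, edgeR). In all 3 of Ifngr1, Stat4 and Il27ra the lowest F4/80int library exceeded the highest F4/80hi library. The share of all genes that separate in this way was not counted.

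Receptor genes of IL-18 and IL-12 were low in macrophages and divided by subset. Il18rap was at 27.7, 27.6 and 25.2 CPM in F4/80int and 2.34, 2.37 and 1.85 CPM in F4/80hi MAMs (log2 fold change -3.62, SE 0.14, adjusted p = 1.60e-06, edgeR). Il18r1 was at 5.06, 3.52 and 2.85 CPM against 1.17, 0.319 and 0.584 CPM (-2.49, SE 0.46, adjusted p = 0.00248), and Il12rb2 at 7.19, 5.77 and 3.72 CPM against 0.765, 0.709 and 0.389 CPM (-3.17, SE 0.36, adjusted p = 0.000202, edgeR). Il12rb1 went the other way, with 4.40, 2.32 and 3.37 CPM in F4/80int and 11.6, 5.38 and 8.04 CPM in F4/80hi MAMs (1.30, SE 0.33, adjusted p = 0.0113, edgeR). The per-kilobase ratio of Il12rb2 to Il12rb1 was 1.81 to 4.07 in F4/80int and 0.0793 to 0.216 in F4/80hi MAMs.

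Il1rl1 was at 11.9, 10.8 and 9.60 CPM in F4/80int and 14.1, 26.1 and 15.2 CPM in F4/80hi MAMs (0.78, SE 0.23, adjusted p = 0.0238, edgeR). Il18bp was not called, at 21.6, 14.1 and 15.2 CPM and 24.3, 14.1 and 22.3 CPM, with a 95% interval of the log2 difference from -0.27 to 0.77. It was called without F4/80hi replicate 2 (adjusted p = 0.0900, edgeR). Ifng was close to 0 in both subsets, with 47, 42 and 3 counts in F4/80int and 11, 0 and 3 counts in F4/80hi MAMs. The groups overlapped, and the call (log2 fold change -2.51, SE 1.07, adjusted p = 0.0857) ended when F4/80hi replicate 2 or 3 or F4/80int replicate 1 or 2 was left out (adjusted p from 0.179 to 0.205, edgeR).

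**Figure D4:**
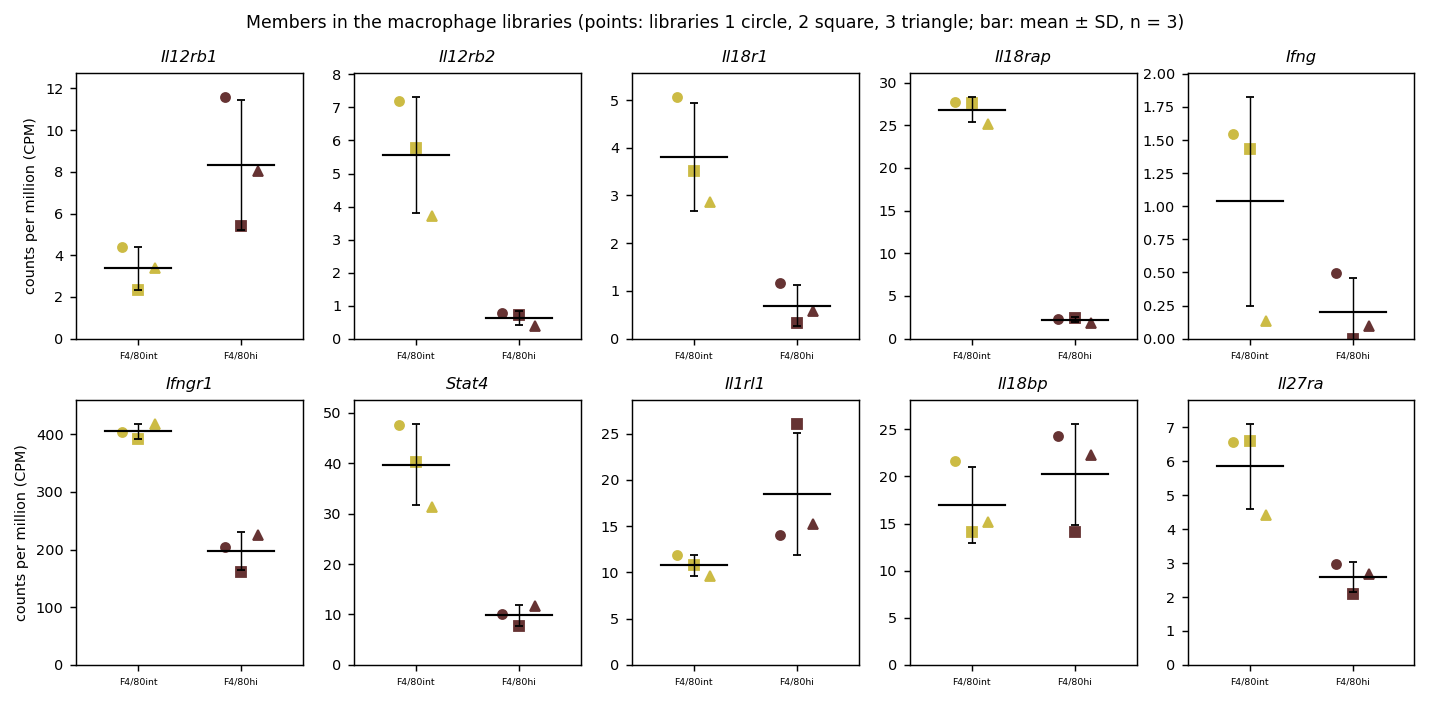
CPM of the 10 genes (y axes, linear, each from 0) in the 6 macrophage libraries by subset, with the mean and SD of 3 libraries. Il18rap, Il12rb2, Il18r1, Stat4, Ifngr1 and Il27ra are lower in F4/80hi MAMs and Il12rb1 and Il1rl1 higher, without overlap between subsets. Il18bp and Ifng overlap. The share of all genes without overlap was not counted, and 27.8% of all genes were called higher and 27.1% lower in F4/80hi MAMs.

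Lymphocyte markers moved with this difference. The 6 NK and ILC1 markers in the macrophage table, from which Ncr1 is missing, summed to 126, 105 and 61.3 CPM in F4/80int and 11.7, 5.49 and 8.11 CPM in F4/80hi MAMs. Of these 6, 5 were called lower in F4/80hi cells, where 27.1% of all genes were lower, among them Klrk1 (78.0 against 4.98 CPM) and Klrb1c (2.35 against 0.422 CPM). Klrk1 made up most of the mean F4/80int sum, so the sum mainly follows this gene. In MFL NK cells the means of Klrk1 and Klrb1c were nearer each other, at 886 and 709 CPM. The 9 T cell markers summed to at most 28.8 CPM in F4/80int and 18.1 CPM in F4/80hi MAMs, with 2 called lower, Cd5 and Cd6. In F4/80int replicate 3, which had the lowest NK and ILC1 marker sum, Il18rap was at 25.2 CPM, near the other F4/80int libraries, while Il18r1 (2.85 CPM), Il12rb2 (3.72 CPM), Stat4 (31.3 CPM) and Ifng (0.130 CPM) were at their lowest of the F4/80int libraries. The part of lymphocyte RNA in the macrophage values of Il18rap, Il18r1, Il12rb2, Stat4 and Ifng was not tested. Of 7 ILC2 markers, 3 were in the table (Gata3, Areg and Icos) and were called lower in F4/80hi cells, in which Il1rl1 was higher. Of 8 mast cell and basophil markers the table holds Kit, at 77.7, 76.9 and 47.0 CPM in F4/80int and at most 1.74 CPM in F4/80hi MAMs (log2 fold change -5.50, adjusted p = 2.87e-06, edgeR). Hepatocyte markers summed to 213 to 244 CPM and 363 to 727 CPM, and B cell markers to 6.36 to 19.7 CPM and 18.6 to 36.9 CPM in F4/80int and F4/80hi MAMs. The paper proposes that F4/80int MAMs are recruited monocytes turning into macrophages. Dendritic cell and monocyte markers were not listed, so the part of such cells in the F4/80int values was not tested.

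Many other genes of the pathway were lower in F4/80hi MAMs, where 27.1% of all genes were called lower and 27.8% higher. All 10 signal transducers tested were called lower, led by Jak2 (332 against 50.9 CPM, log2 fold change -2.71), Irak2 (-1.02), Tyk2 (-0.97) and Stat3 (-0.92). Among 5 ligand genes measured, 1 was called, Il12b, which encodes the p40 chain of IL-12 and IL-23, at 25.5, 12.5 and 10.6 CPM in F4/80int and 2.12, 1.06 and 1.46 CPM in F4/80hi MAMs (-3.41, SE 0.40, adjusted p = 0.000235, edgeR). Il18 was at 9.49, 8.88 and 12.8 CPM and 12.8, 13.0 and 12.1 CPM and was not called. Among 21 interferon gamma targets 15 were lower, led by Ciita, the master regulator of MHC class II genes (530.1 against 52.0 CPM, -3.35), Nos2 (-3.25), Cd274 (-2.14) and Gbp4 (-1.16), and 2 were higher, Iigp1 (1.38) and Gbp6 (0.75). The protein made from Cd274 is PD-L1. For this protein the paper reports the opposite direction, with more of it on the high than on the intermediate subset. Transcript and surface protein are different measures, and the reason for this difference was not tested. Of 8 regulators of Ifng 5 were lower, with Tbx21, which encodes T-bet, the most changed (5.19 against 0.259 CPM, -4.30). Of 5 receptor partners 4 were lower, Il1r1 (-1.90), Sigirr (-1.40), Il1rap (-0.54) and Il6st (-0.44).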

How the data were processed

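RNA-seq of 18 sorted libraries was analyzed. For lymphocytes, the authors ran Salmon v1.5.0 on trimmed reads (GRCm39, GENCODE M27), followed by tximport, and the deposited values are estimated counts in whole numbers. For MAMs the authors deposited whole-number counts, with low genes already removed (lowest total 37); the submitters' processing notes list Salmon v1.10.0, and the counting step is not given in the sources used here. Strandedness of the counting was not given.

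Of 54309 and 13759 IDs, 53700 and 13726 matched GENCODE M39. Tests were run with edgeR v4.0.16 in R v4.3.3 (filterByExpr, TMM, quasi-likelihood test, 1 fit of 12 and 1 of 6 libraries), with DESeq2 v1.42.0 and limma v3.58.1 as alternatives, and were tested on simulated data. The filter kept 13594 and 13759 genes. SE is the log2 fold change divided by the square root of F.

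Members and lists were chosen with earlier results of these data known. All members are named. In each list, at most 4 called genes per comparison are named, largest change first, and the 3 genes most like Ifng, Il12rb2, Il18r1 and Stat4; other list genes were chosen after their values were seen. The lymphocytes came from 3 independent sortings of pools, so p-values measure the spread between pools. Groups may be matched by sorting, and the main fits had no replicate block, so they ignore any such matching. With 3 libraries against 3, an exact two-sided permutation test cannot go below 0.1.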

Additional observations from a re-analysis of the deposited data

Results flagged for a closer look

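Il18r1 was the member whose change from CD49a- to CD49a+ cells differed between the sites by the interaction test. The log2 fold change was -2.58 from NK cells to ILC1 in MFL and -0.38 from CD49a- to CD49a+ NK cells in LM, a difference of 2.20 (SE 0.34, adjusted p = 0.00331, edgeR), and the adjusted p lay between 0.000813 and 0.0155 when 1 library was left out. The CD49a+ cells of the sites were sorted by different CD49b gates, and site and dissociation cannot be told apart.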

How the results depend on the processing

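All called differences of Il18r1, Il18rap and Ifngr1 kept their direction and call under RLE scaling, no filter, DESeq2, limma voom, the replicate block and each left-out library. Those between pairs of lymphocyte groups also kept them with only the groups compared, which was not run for the interaction or the MAMs. Counts of called members moved as follows. MFL ILC1 against MFL NK cells had 4 calls, against 5 with DESeq2 and the replicate block and 6 with no filter, limma voom and only the groups compared. LM CD49a+ NK cells against ILC1 had 4, against 3 with only the groups compared, 5 with DESeq2 and no filter and 6 with limma voom. LM CD49a- NK cells against ILC1 had 5, against 6 with limma voom. For LM CD49a+ relative to LM CD49a- NK cells, 1 was called with DESeq2, without the filter and with the replicate block, against 0, and 0 to 1 when 1 library was left out. Between LM CD49a+ NK and MFL NK cells, 1 was called with DESeq2, limma voom and no filter, against 0, and 0 to 1 with 1 library left out. Between LM CD49a- NK and MFL NK cells, limma voom called 1 against 0. The interaction had 2 calls without the filter, against 1. Limma voom gave Ifng in MAMs an adjusted p of 0.240.

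Signs turned only in differences that were not called. With the replicate block Ifng was 0.067 for the interaction, -0.094 for LM CD49a- against MFL NK cells and -0.0271 for LM CD49a+ NK cells against ILC1, and Il18bp was 0.40 between the LM groups. With limma voom these included Ifng at -0.16 (LM CD49a+ NK against ILC1), Il18bp at 0.21 (LM groups), Il18r1 at -0.0019 and Il27ra at -0.20 (LM CD49a- against MFL NK), and Stat4 at -0.021 (LM CD49a+ against MFL NK). Il12rb2 there was 0.0038 with DESeq2 and 0.0039 with RLE scaling.

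Leaving out 1 library gave these ranges where a sign turned. For LM CD49a+ NK cells against ILC1, Ifng was -0.21 to 0.51. Against MFL NK cells they were -0.64 to 0.091 for Ifng, -0.10 to 0.43 for Ifngr1, -1.48 to 0.14 for Il12rb1, -0.21 to 0.088 for Il12rb2 and -0.074 to 0.18 for Stat4. For LM CD49a- against MFL NK cells, Ifng was -0.17 to 0.65, Il18r1 -0.14 to 0.27 and Il27ra -0.48 to 0.53. Between the LM groups, Il12rb1 was -0.74 to 1.05, Il18bp -1.42 to 1.65 and Il27ra -0.19 to 0.82. In the interaction Ifng was -0.51 to 0.32 and Il18bp -2.02 to 1.06.

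Same-numbered libraries deviated together with r from -0.045 to 0.098 in lymphocytes and -0.015 to 0.17 in MAMs. For other numbers r was -0.11 to 0.084 and -0.12 to 0.091. Whether same-numbered libraries share a sort cannot be told from these values. The causes of these shifts were not tested.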

Other observations

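Tbx21, which encodes T-bet, and Runx3, chosen after their values were seen, are regulators of Ifng that were abundant in all lymphocytes. Tbx21 was at 456, 491 and 485 CPM in MFL NK cells, at 320.1, 417 and 573 CPM in LM CD49a- NK cells, 366, 348 and 383 CPM in LM CD49a+ NK cells and 323, 379 and 342 CPM in MFL ILC1. Every MFL NK library was above the LM CD49a+ NK and ILC1 libraries, but neither difference was called (edgeR). The share of all genes that separate this way was not counted. In MAMs Tbx21 was at 6.14, 5.87 and 3.55 CPM in F4/80int and 0.270, 0.248 and 0.259 CPM in F4/80hi cells, and Runx3 at 273, 293 and 287 CPM and 132, 119 and 130.3 CPM.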
